A study of Mus musculus with 12 samples.

Results

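The genes described here are Il6, Il11, Lif, Csf1, Ccl2, Ccl7, Cxcl1, Cxcl10 and Cxcl12, 9 secreted cytokines and chemokines taken by gene name from the 54345 genes of the deposited expression table. Each name matched 1 gene, and all 9 genes were among the 25044 genes tested. The values are FPKM (a level per length, in which the fragments of a gene are divided by its length and by the size of the library) from poly(A) RNA sequencing of H9c2(2-1) cells, a wild-type line that the labels call myoblasts. The study compared 4 groups of 3 libraries, all harvested after 6 h. They were cells left untreated (Unt), cells given doxorubicin (DOX), an anthracycline chemotherapy drug, cells given DOX together with dexrazoxane (D_DXZ), the clinical cardioprotective agent, and cells given DOX together with magnesium hexacyanoferrate nanocatalysts (D_MgHCF). DOX was therefore shared by the D_DXZ and D_MgHCF groups, and the doses in the sequenced cells are not given in the sources used here. H9c2 is a clonal line and every library is of that line. Nothing in the labels says that the replicates came from separate cultures, so p-values measure the spread between these libraries, which may be technical.

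Cytokines and chemokines are small secreted proteins with which cells signal to each other. Il6, Il11 and Lif encode ligands of the IL6 family, which act through their receptors and the shared transducer encoded by Il6st, and from there through JAK kinases and STAT3. Csf1 encodes the growth factor that keeps macrophages alive, Ccl2 and Ccl7 attract monocytes, Cxcl1 attracts neutrophils, Cxcl10 is an interferon-inducible attractant of T cells, and Cxcl12 retains stem cells and lymphocytes through the receptor CXCR4. In the heart these factors are known from wound repair, fibrosis and the recruitment of immune cells. Many of their mRNAs are short-lived, because the RNA after the stop codon carries AU-rich elements that decay factors such as the product of Zfp36 bind, and many of their promoters are bound by NF-kappaB.

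In untreated cells the highest levels were those of Csf1, with a mean of 85.0 FPKM, and Ccl2, with 41.1 FPKM. DOX lowered the 4 chemokine genes Ccl2, Ccl7, Cxcl1 and Cxcl10 to between 0.166 and 0.546 of the untreated mean FPKM, and raised Cxcl12 to 5.65 times the untreated mean. With dexrazoxane no gene passed the test against DOX alone, although the Cxcl1 libraries, with a mean of 4.76 FPKM in D_DXZ and 2.50 FPKM in DOX, did not overlap. With MgHCF, Cxcl12 was near its untreated level, Ccl2 rose above it, and the IL6 family genes Il6, Il11 and Lif had their highest mean FPKM of the 4 groups, although replicate 3 of D_MgHCF stood apart from the others in several of these genes.

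The 12 libraries held between 16626514 and 19365119 reads on genes. Whole reads were recovered from the FPKM of every gene, so the count behind each low value is known. The deposited FPKM contain a scaling to equal median ratios between libraries, and this matters for the groups with DOX. Among 11515 genes with a mean of at least 1 FPKM, the median log2 difference of DOX from Unt was 0.05 on the deposited scale, but -0.69 when FPKM was scaled to the summed reads instead and -1.18 when it was turned into TPM. Of the genes called in this comparison, 4649 were higher and 4973 lower on the deposited scale, against 2075 and 8303 with scaling to summed reads and 1111 and 10227 in TPM. For D_DXZ against Unt 3979 were higher and 4515 lower on the deposited scale, against 1913 and 7946 with summed reads and 913 and 10083 in TPM. The log2(FPKM + 1) values of replicates correlated at 0.99157 or more (Pearson) outside D_MgHCF. Within D_MgHCF, replicates 1 and 2 correlated at 0.98758, and replicate 3 correlated with them at 0.95704 and 0.97361. The labelled cell type had little support among its markers, since the summed FPKM of 7 myoblast markers lay between 0.3562 and 2.476 in all libraries. The sum over 5 mesenchymal markers, by contrast, was 485.5 to 556.4 in Unt and 1492 to 1889 with DOX. It was 1145 to 1490 with D_DXZ and 283 to 515 with D_MgHCF. The group means of this sum had the same order as those of Cxcl12, but its members did not all share it. Vim and Fn1 made up most of the sum, with means of 243 and 225 FPKM in Unt. For DOX against Unt 3 of the 5 passed upward, and Col1a2 did not pass (0.42, limma, adjusted p = 0.191). Pdgfra fell, from a mean of 0.718 FPKM in Unt to 0.352 in DOX (log2 fold change -0.34, limma, adjusted p = 0.0095). The sum over 6 cardiac muscle markers was 9.799 to 11.16 FPKM in untreated cells, 3.14 to 5.821 with DOX, 3.037 to 4.29 with D_DXZ and 14.91 to 26.42 with D_MgHCF. Most of it came from Gata4, with means of 10.3, 3.35, 2.93 and 19.2 FPKM in that order. Tnnt2 went the other way with DOX, from a mean of 0.133 FPKM in Unt to 0.903 in DOX (log2 fold change 0.75, limma, adjusted p = 3.9e-05). The sum over 4 endothelial markers stayed at or below 0.1998 FPKM outside D_MgHCF, where it was 0.2627 to 1.08. The summed FPKM of 7 leukocyte markers was lowest in Unt (1.039 to 1.231) and reached 3.869 in DOX, 4.731 in D_DXZ and 5.649 in D_MgHCF, most of it from Cd68. The part of these markers in the results was not tested. In bulk libraries such as these, fewer cells that express a gene and less RNA per cell cannot be told apart.

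The sequences below are those of the mouse reference, since the labels name Mus musculus and the reads were placed on GRCm38, whereas the study describes H9c2 as a rat line. How well the reads of these cells matched the mouse genome was not tested, so a level or a 0 in any gene here, the markers included, can also depend on that match. The sequences are shown because 4 of these genes moved together under DOX and Cxcl12 moved the other way. RefSeq promoter windows (GRCm38.p6) matched 7 of the 9 genes in 8 windows, with an additional window for Il11 and none for Ccl2 and Ccl7. The 250 bases before the start are given 5′ to 3′, with capitals for a kappaB motif on either strand, the interferon-stimulated response element and the AP-1 site TGANTCA.
Cxcl1 (chr5:90890995-90891244, plus strand): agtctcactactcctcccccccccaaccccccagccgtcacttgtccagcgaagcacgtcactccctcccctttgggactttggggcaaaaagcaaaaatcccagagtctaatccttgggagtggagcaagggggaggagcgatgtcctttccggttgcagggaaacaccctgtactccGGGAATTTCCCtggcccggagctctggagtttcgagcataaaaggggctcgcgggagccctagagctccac
Cxcl10 (chr5:92348890-92349139, minus strand): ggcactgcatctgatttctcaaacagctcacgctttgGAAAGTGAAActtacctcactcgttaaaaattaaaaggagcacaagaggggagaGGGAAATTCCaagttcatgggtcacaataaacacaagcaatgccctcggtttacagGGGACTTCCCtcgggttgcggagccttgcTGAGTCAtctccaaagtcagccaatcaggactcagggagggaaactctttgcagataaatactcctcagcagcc
Il6 (chr5:30012864-30013113, plus strand): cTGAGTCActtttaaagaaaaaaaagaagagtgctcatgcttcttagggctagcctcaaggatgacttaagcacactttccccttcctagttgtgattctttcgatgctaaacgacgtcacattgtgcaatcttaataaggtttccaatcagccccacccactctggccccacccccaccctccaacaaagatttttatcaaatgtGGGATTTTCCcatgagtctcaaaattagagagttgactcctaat
Cxcl12 (chr6:117168285-117168534, plus strand): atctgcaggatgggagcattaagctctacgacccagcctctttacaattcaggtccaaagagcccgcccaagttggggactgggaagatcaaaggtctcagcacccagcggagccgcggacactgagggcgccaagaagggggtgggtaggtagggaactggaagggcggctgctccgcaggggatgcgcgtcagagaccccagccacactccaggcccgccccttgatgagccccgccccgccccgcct
The kappaB motif was present in the windows of Csf1, Il6, Cxcl1 and Cxcl10, 4 of the 8 windows, and in 3.9% of 32851 mouse promoter windows of the same length. The capitals in Cxcl1 are a pair of overlapping matches on opposite strands. Cxcl10 alone of these genes held the interferon-stimulated response element, which 2.98% of all windows hold. The site TGANTCA was found for Il6, Cxcl10, Il11 and Lif, in 4 of the 8 windows, against 6.75% of all windows. TATAAA was in 0 of the 8 windows, against 12.4% of all. The Cxcl12 window held none of these letters and had a GC content of 64.4%, compared with a median of 52.4% over all windows. Neither trait was particular to Cxcl12. An Il11 window, with a GC content of 58.8%, held none of these letters either. The GC content was 64.8% in the other Il11 window and 63.6% in that of Lif. A match of letters is a description of the sequence and not a bound site.

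Beyond the stop codon the genes differed in the AU-rich pentamer ATTTA, in the annotated transcript used for each gene. There were 11.8 copies per kilobase in Cxcl1, 8.38 in Il11 and 6.0 in Il6, against a median of 1.35 over 19841 genes and 0.771 in Cxcl12. Among genes with a stretch of similar length, 0.553% held as many copies as Cxcl1 and 0.622% as many as Il11. Ccl7, Ccl2, Cxcl10, Lif and Csf1 lay between, at 4.6, 3.64, 3.01, 2.2 and 1.89 copies per kilobase. The 30 bases with the most copies are shown for the genes with the highest density, on GRCm38, with ATTTA in capitals.
Cxcl1 (chr5:90892602-90892631, plus strand): gagggtcctATTTATTTAtgtATTTATTTA
Il11 (chr7:4773506-4773535, minus strand): ctttaaaaccagatcttATTTATTTATTTA
Il6 (chr5:30019677-30019706, plus strand): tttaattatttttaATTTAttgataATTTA

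Il6 (GRCm38 chr5:30013114-30019981, plus strand) encodes the cytokine that gives the family its name. It was measured near the lower limit of detection. The FPKM was 0.0491, 0.172 and 0.101 in Unt replicates 1 to 3, from 3, 10 and 6 reads. In DOX it was 0.217, 0.128 and 0.142, and in D_DXZ 0.128, 0.189 and 0.154, from between 4 and 8 reads in each library. The D_MgHCF libraries had 1.67, 0.906 and 0.151 FPKM, from 85, 56 and 9 reads. Replicates 1 and 2 of D_MgHCF were thus above all other libraries, whereas replicate 3 lay within the range of the untreated cells. The mean FPKM in D_MgHCF was 8.45 times that in Unt, while the fitted log2 fold change was only 0.70 (SE 0.23, limma, adjusted p = 0.0326), because the pseudocount of 1 is larger than most of these values. This call was lost when any Unt library or D_MgHCF replicate 1 or 2 was left out (limma, adjusted p from 0.0626 to 0.0888). Without D_MgHCF replicate 3 the log2 fold change was 1.03. Against DOX and D_DXZ it was 0.63 and 0.64 (limma, adjusted p = 0.0395 and 0.0401), and either call was lost in 16 of 22 alternatives. The Unt, DOX and D_DXZ libraries overlapped one another, and no order among those groups can be read.

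Il11 (GRCm38 chr7:4772373-4782857, minus strand), whose product is known as a profibrotic factor in the heart, had the lowest counts in the groups with DOX alone or with dexrazoxane. The untreated libraries had 0.612, 0.415 and 0.488 FPKM from 31, 20 and 24 reads. With DOX the values were 0.196, 0.116 and 0.258 FPKM from 6, 3 and 6 reads, and with D_DXZ 0.0616, 0.417 and 0.112 FPKM from 2, 11 and 3 reads. All 3 DOX libraries were below all 3 untreated ones, and the DOX mean was 0.376 of the untreated mean FPKM. The difference did not pass the test (log2 fold change -0.34, SE 0.34, limma, adjusted p = 0.55), on a scale where the pseudocount of 1 exceeds these values. It passed in 2 of 22 alternatives. In TPM, 1 of these, it was -1.29 (limma, adjusted p = 0.0391), close to the median of -1.18 over expressed genes. In D_MgHCF the FPKM was 4.26, 2.85 and 0.607 from 180, 146 and 30 reads. Replicate 3 was again at the untreated level, and all 3 libraries exceeded every DOX and D_DXZ library. The rise in D_MgHCF was 1.09 against Unt (SE 0.34, limma, adjusted p = 0.0291) and 1.43 against DOX (SE 0.34, limma, adjusted p = 0.00569) on the log2 scale. The former lost its call without any of the Unt libraries or without D_MgHCF replicate 1 or 2 (limma, adjusted p from 0.0599 to 0.09), and the latter kept it with every library left out in turn.

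Lif (GRCm38 chr11:4257557-4272514, plus strand) encodes leukaemia inhibitory factor, a family member that acts on cardiac muscle cells. Its FPKM was 1.78, 1.63 and 1.85 in Unt, 2.59, 2.62 and 2.31 in DOX, 2.21, 4.61 and 3.22 in D_DXZ, and 8.48, 5.7 and 2.86 in D_MgHCF. Every treated library lay above the untreated ones, and D_MgHCF replicate 3 lay inside the range of D_DXZ. The means rose in the order Unt, DOX, D_DXZ and D_MgHCF, from 1.76 ± 0.114 to 5.68 ± 2.81 FPKM (SD, n = 3 libraries each), and the D_DXZ libraries overlapped those of DOX and of D_MgHCF. D_MgHCF passed the test against Unt (log2 fold change 1.18, SE 0.29, limma, adjusted p = 0.0101) and against DOX (0.84, SE 0.29, limma, adjusted p = 0.0355), but not against D_DXZ (0.56, limma, adjusted p = 0.139). Without D_MgHCF replicate 3 the difference from D_DXZ was 0.91 and passed (limma, adjusted p = 0.00555). The call against DOX was lost without any of the DOX libraries or without D_MgHCF replicate 1 or 2. DOX and D_DXZ did not pass against Unt, at 0.35 and 0.62, although D_DXZ did without D_MgHCF replicate 3 (limma, adjusted p = 0.029). The sign depended on the scaling, with -0.29 for DOX when scaled to summed reads, and -0.73 for DOX and -0.28 for D_DXZ in TPM, each above the median of all expressed genes on that scale.

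**Figure D1:**
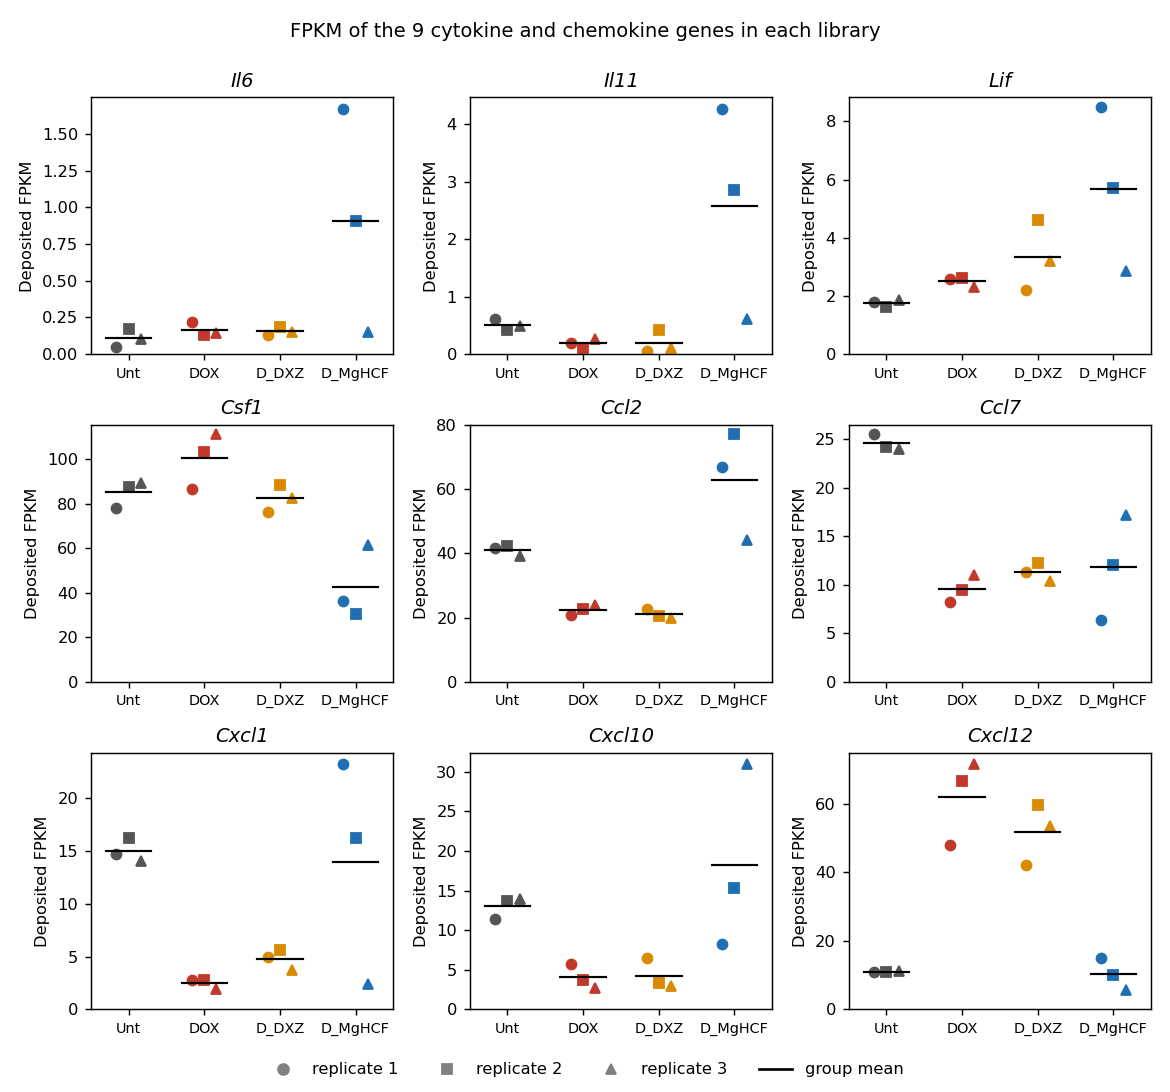
Deposited FPKM of the 9 genes in each of the 12 libraries, on a separate axis from 0 for each gene. Symbols give replicates 1 to 3 and the black line the group mean, and Cxcl12 shows DOX and D_DXZ between 42.2 and 71.6 FPKM with all other libraries at or below 15.0.

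Csf1 (GRCm38 chr3:107741048-107760469, minus strand) was the most abundant of the 9 genes per length. The untreated libraries had 78.1, 87.5 and 89.3 FPKM. Those with DOX had 86.5, 103 and 111 FPKM, and those with D_DXZ 76.1, 88.2 and 82.5 FPKM. In D_MgHCF the values were 36.5, 30.3 and 61.2 FPKM, all below every other library. Unt, DOX and D_DXZ overlapped, and D_MgHCF was lower than each of them, by a log2 fold change of -1.04 against Unt (SE 0.21, limma, adjusted p = 0.00382), -1.27 against DOX (SE 0.21, limma, adjusted p = 0.000627) and -0.99 against D_DXZ (SE 0.21, limma, adjusted p = 0.00331). The fall against Unt held under every scaling and with every library left out. Whether the fall lay between Unt and DOX or between DOX and D_MgHCF depended on the scaling. Scaled to summed reads, Csf1 fell with DOX by 0.71 on the log2 scale (limma, adjusted p = 0.018), close to the median shift of all expressed genes, and D_MgHCF differed from DOX by -0.32 (limma, adjusted p = 0.211). With quantile normalization these differences were -1.17 and -0.12. In CPM, the reads of a gene scaled to an equal total of reads, Csf1 was at 570 to 625 in Unt, against 358 to 380 with DOX, 326 to 358 with D_DXZ and 229 to 458 with D_MgHCF.

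The CC chemokine genes Ccl2 (GRCm38 chr11:82035571-82037453, plus strand) and Ccl7 (GRCm38 chr11:82045712-82047525, plus strand) are neighbours on the same strand and encode ligands that share the receptor CCR2. Ccl2 was at 41.7, 42.2 and 39.2 FPKM in Unt and at 20.7, 22.7 and 23.9 FPKM in DOX. D_DXZ had 22.8, 20.7 and 19.9 FPKM, and D_MgHCF had 66.9, 77.1 and 44.2 FPKM. DOX and D_DXZ overlapped each other, lay below all untreated libraries, and those lay below all D_MgHCF libraries. Ccl2 fell with DOX by 0.85 on the log2 scale (SE 0.17, limma, adjusted p = 0.00202) and was higher in D_MgHCF than in DOX by 1.41 (SE 0.17, limma, adjusted p = 6.82e-05). The rise of D_MgHCF over Unt was smaller, at 0.56 (SE 0.17, limma, adjusted p = 0.0228), and lost its call when any Unt library or D_MgHCF replicate 1 or 2 was left out (limma, adjusted p from 0.0527 to 0.0782).

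Ccl7 was low in all 3 treated groups. The untreated libraries had 25.5, 24.2 and 24.0 FPKM, and the DOX libraries had 8.22, 9.44 and 11.0 FPKM. D_DXZ had 11.4, 12.2 and 10.4 FPKM, and D_MgHCF had 6.36, 12.1 and 17.2 FPKM. All 9 treated libraries were below the untreated ones, and the 3 treated groups overlapped. The log2 fold changes from Unt were -1.28 in DOX (SE 0.26, limma, adjusted p = 0.00229), -1.06 in D_DXZ (SE 0.26, limma, adjusted p = 0.00875) and -1.08 in D_MgHCF (SE 0.26, limma, adjusted p = 0.00837). D_MgHCF did not pass against DOX (0.20, 95% interval -0.38 to 0.78, limma, adjusted p = 0.548), and this rested on single libraries, as the sign turned to -0.10 without D_MgHCF replicate 3 and the difference was 0.55 and passed without replicate 1 (limma, adjusted p = 0.0133). Scaled to summed reads and in TPM the difference was 1.08 and 1.38 and passed the test. In the D_MgHCF libraries the order of Ccl7 was opposite to that of Il6, Il11 and Lif, with the highest value in replicate 3.

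Among the CXC chemokines, Cxcl1 (GRCm38 chr5:90891241-90893115, plus strand) showed the largest fall with DOX of the 9 genes. It was at 14.7, 16.2 and 14.1 FPKM in Unt and at 2.81, 2.74 and 1.94 FPKM in DOX, from 80, 66 and 42 reads. D_DXZ had 4.92, 5.62 and 3.75 FPKM, above all DOX and below all untreated libraries. D_MgHCF had 23.2, 16.2 and 2.37 FPKM, so that replicates 1 and 2 were at or above the untreated level and replicate 3 was within the range of DOX. In CPM, D_MgHCF replicate 3 was at 6.29, above DOX at 2.35 to 4.13 and within D_DXZ at 5.26 to 8.23. The log2 fold change with DOX was -2.20 (SE 0.57, limma, adjusted p = 0.00993). With D_DXZ it was -1.48 against Unt, which did not pass in the fit of all libraries (limma, adjusted p = 0.0711) but did without D_MgHCF replicate 3 (limma, adjusted p = 8.5e-05) or replicate 1 (limma, adjusted p = 0.0314). D_MgHCF was higher than DOX by 1.69 (SE 0.57, limma, adjusted p = 0.0298), a call that was lost without any of the DOX libraries or without D_MgHCF replicate 1 or 2, and higher by 2.56 without D_MgHCF replicate 3. Against Unt it differed by -0.51 with all libraries and by 0.35 without replicate 3, and passed in neither case.

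Cxcl10 (GRCm38 chr5:92346638-92348889, minus strand) was at 11.5, 13.7 and 14.0 FPKM in Unt. It was at 5.79, 3.67 and 2.65 FPKM in DOX and at 6.49, 3.32 and 2.93 FPKM in D_DXZ. These groups overlapped each other and lay below every untreated library. D_MgHCF had 8.27, 15.3 and 31.0 FPKM, above all DOX and D_DXZ libraries, with the highest value this time in replicate 3. The log2 fold change was -1.52 in DOX (SE 0.42, limma, adjusted p = 0.0133) and -1.48 in D_DXZ (SE 0.42, limma, adjusted p = 0.0179) against Unt. The former lost its call without DOX replicate 3 (limma, adjusted p = 0.0554), and the latter without Unt or D_DXZ replicate 2 or 3 and with no filter on low values (limma, adjusted p from 0.0532 to 0.0699). D_MgHCF was higher than DOX by 1.80 (SE 0.42, limma, adjusted p = 0.00458), and this held with every library left out. The difference from Unt was 0.27 and did not pass. Art3, which overlaps Cxcl10 on the opposite strand, had 75 reads over the 12 libraries against 5937 for Cxcl10.

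Cxcl12 (GRCm38 chr6:117168535-117181367, plus strand) was the only one of the 9 genes to pass the test in the upward direction with DOX. The untreated libraries were tight, at 10.8, 11.0 and 11.1 FPKM. With DOX the values were 47.9, 66.5 and 71.6 FPKM, and with D_DXZ 42.2, 59.5 and 53.5 FPKM. In D_MgHCF they were 15.0, 9.96 and 5.74 FPKM, on both sides of the untreated range. The DOX and D_DXZ libraries overlapped, the Unt and D_MgHCF libraries overlapped, and the former were all above the latter. The log2 fold change was 2.38 in DOX (SE 0.27, limma, adjusted p = 6.27e-05) and 2.13 in D_DXZ (SE 0.27, limma, adjusted p = 0.00023) against Unt, and -2.55 in D_MgHCF against DOX (SE 0.27, limma, adjusted p = 3.58e-05). The rise with DOX remained under each scaling, with 1.88 after quantile normalization, 1.47 when scaled to summed reads and 1.10 in TPM. Cxcl12 was at 119 to 122 CPM in Unt and at 307 to 379 CPM in DOX.

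Taken by comparison, 5 of the 9 genes passed the test (limma, Benjamini-Hochberg adjusted p under 0.05 over all genes tested) for DOX against Unt, namely Cxcl12 upward and Ccl2, Ccl7, Cxcl1 and Cxcl10 downward, while 38.4% of all genes tested did (18.6% upward and 19.9% downward). The median log2 fold change of the 9 genes was -0.34, against 0 over all genes. The share that passed was larger among expressed genes. With the filter at an FPKM of at least 1, 9079 of 12434 genes passed for DOX against Unt, 8402 for D_DXZ against Unt and 6778 for D_MgHCF against Unt. The shares over all genes therefore do not show that these genes passed more often than genes of similar level. The same limit applies to the gene lists below. For D_DXZ against Unt 4 of 9 passed, against 33.9% of all genes, with Cxcl12 upward (15.9% of all genes) and Ccl2, Ccl7 and Cxcl10 downward (18% of all genes). For D_MgHCF against Unt 6 of 9 passed, against 40.1% of all genes. These were Il6, Il11, Lif and Ccl2 upward, as 24.3% of all genes were, and Csf1 and Ccl7 downward, as 15.7% were. With quantile normalization the 6096 genes higher and 3941 lower became 4252 and 4627. Since this comparison and the former ones share the untreated libraries, the lists are given side by side and their overlap is not counted. The number of the 9 genes whose libraries did not overlap between groups was 7 for DOX against Unt (51.8% of all genes), 6 for D_DXZ against Unt (50.4%) and 4 for D_MgHCF against Unt (48.9%).

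Between D_DXZ and DOX 0 of the 9 genes passed, and 0% of all genes tested. At an unadjusted p under 0.05 the count was again 0 of the 9 genes, against 9.54% of all genes, and quantile normalization, which called 3 genes in all, and voom called 0 of the 9 as well. The largest difference was that of Cxcl1, at 0.72 (95% interval -0.55 to 1.98), and it was 1 of 9 whose libraries did not overlap between the groups, against 16.3% of all genes. The intervals were narrowest for Ccl2 (-0.46 to 0.29) and Csf1 (-0.75 to 0.20). For Cxcl12 the interval was -0.86 to 0.36, and for Cxcl10 it was -0.88 to 0.97. These intervals and p-values rest on 1 spread per gene shared by all 4 groups, so the spread within D_MgHCF enters them too. For Cxcl1 the SD was 0.487 FPKM in DOX and 0.941 in D_DXZ, against 10.6 in D_MgHCF. A fit of only DOX and D_DXZ also called 0 of all genes. The 95% intervals are not adjusted for the number of genes and give the differences that this fit allows, not a limit of detection. The missing calls do not show that dexrazoxane left these genes as they were.

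For D_MgHCF against DOX 8 of the 9 genes passed, and 51.5% of all genes tested did. Il6, Il11, Lif, Ccl2, Cxcl1 and Cxcl10 were higher, in a comparison in which 31.4% of all genes were called higher, and Csf1 and Cxcl12 were lower, where 20.1% were. This background moved with the scaling, from 7863 genes higher and 5027 lower on the deposited scale to 12376 and 2401 with summed reads, 13504 and 1691 in TPM, and 4626 and 4914 with quantile normalization. Ccl7 did not pass. The median log2 fold change of the 9 genes was 0.84, against 0.07 over all genes. With the filter at an FPKM of at least 1, 9339 of 12434 genes passed for D_MgHCF against DOX and 8744 for D_MgHCF against D_DXZ, again larger shares than over all genes. The count fell to 5 without any of the DOX libraries or without D_MgHCF replicate 2, and remained at 8 without D_MgHCF replicate 3. For D_MgHCF against D_DXZ 6 of 9 passed, against 48.4% of all genes, with Il6, Il11, Ccl2 and Cxcl10 higher (29.4% of all genes) and Csf1 and Cxcl12 lower (19% of all genes). Over all genes 7358 were higher and 4757 lower here, against 11426 and 2382 with summed reads, 12801 and 1559 in TPM, and 4587 and 4840 with quantile normalization. The libraries of 6 of the 9 genes did not overlap between D_MgHCF and DOX (53.2% of all genes), and those of 5 did not between D_MgHCF and D_DXZ (50.4%). For D_MgHCF against D_DXZ the largest fitted log2 fold changes were those of Cxcl12, at -2.30, and Cxcl10, at 1.75. This order depends on the pseudocount, which shrinks the change of low genes. By mean FPKM, D_MgHCF was at 13.1 times D_DXZ for Il11 and 5.79 times for Il6, against 4.29 times for Cxcl10. Lif and Cxcl1 passed in addition without D_MgHCF replicate 3, which gave 8 of 9.

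**Figure D2:**
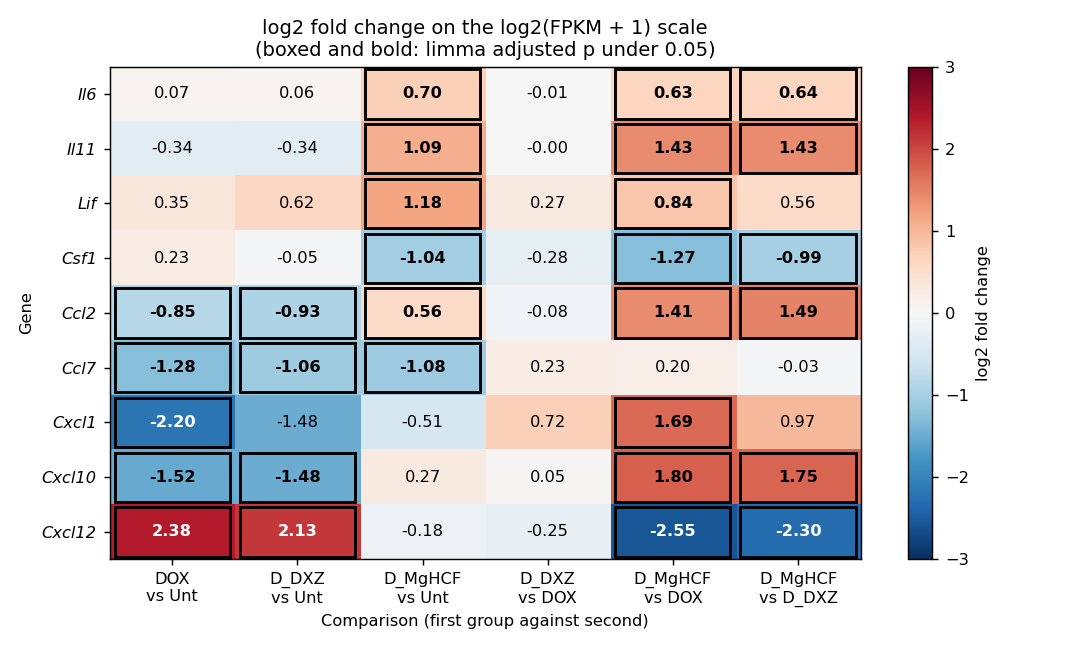
Fitted log2 fold changes of the 9 genes (rows) in the 6 comparisons (columns) on the log2(FPKM + 1) scale, with boxes for an adjusted p under 0.05. The column of D_DXZ against DOX has no box and values from -0.28 to 0.72, while that of D_MgHCF against DOX has 8 boxes.

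Within D_MgHCF the libraries did not move alike. Relative to the untreated mean, Cxcl1 was at 1.55, 1.08 and 0.158 times in replicates 1 to 3, and Cxcl10 at 0.633, 1.17 and 2.38 times. Il6 was at 15.5, 8.44 and 1.41 times, and Il11 at 8.43, 5.64 and 1.2 times. Replicate 3 was the lowest of the 3 libraries for Il6, Il11, Lif, Ccl2, Cxcl1 and Cxcl12 and the highest for Csf1, Ccl7 and Cxcl10. For Cxcl1 the D_MgHCF libraries thus spanned the levels of both DOX and Unt on the deposited scale, whereas the untreated libraries stayed between 14.1 and 16.2 FPKM.

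**Figure D3:**
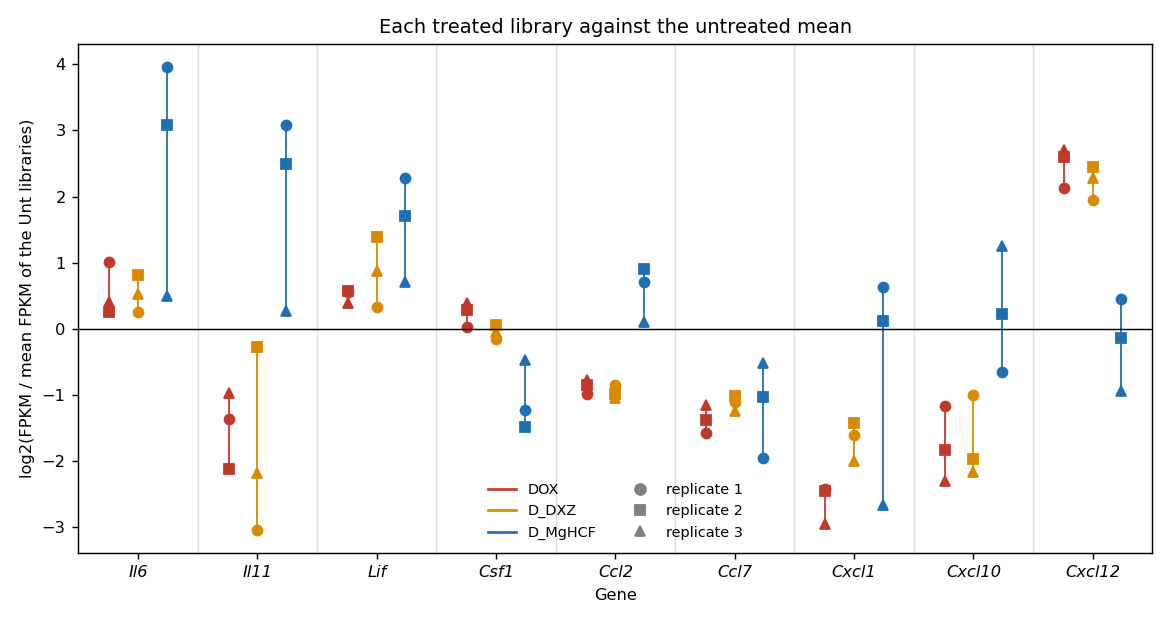
log2 ratio of each treated library to the mean FPKM of the untreated libraries (vertical axis) for each gene (horizontal axis), with a line from the lowest to the highest library of a group. In D_MgHCF, replicate 3 (triangles) sits near 0 for Il6 and Il11 and with the DOX libraries for Cxcl1.

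For DOX against Unt, the 5 chemokine genes passed the test with the same sign under all 4 scalings, but the sizes differed. Relative to the median of the expressed genes on each scale, Cxcl1 was lower in DOX than in Unt by -2.25 on the deposited scale, -2.11 after quantile normalization, -2.27 when scaled to summed reads and -2.50 in TPM. Cxcl12 was higher by 2.33, 1.85, 2.15 and 2.27 in the same order. Ccl2 was at -0.89, -1.66, -1.07 and -1.04. Csf1 did not keep a sign, at 0.18, -1.20, -0.02 and 0.05.

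**Figure D4:**
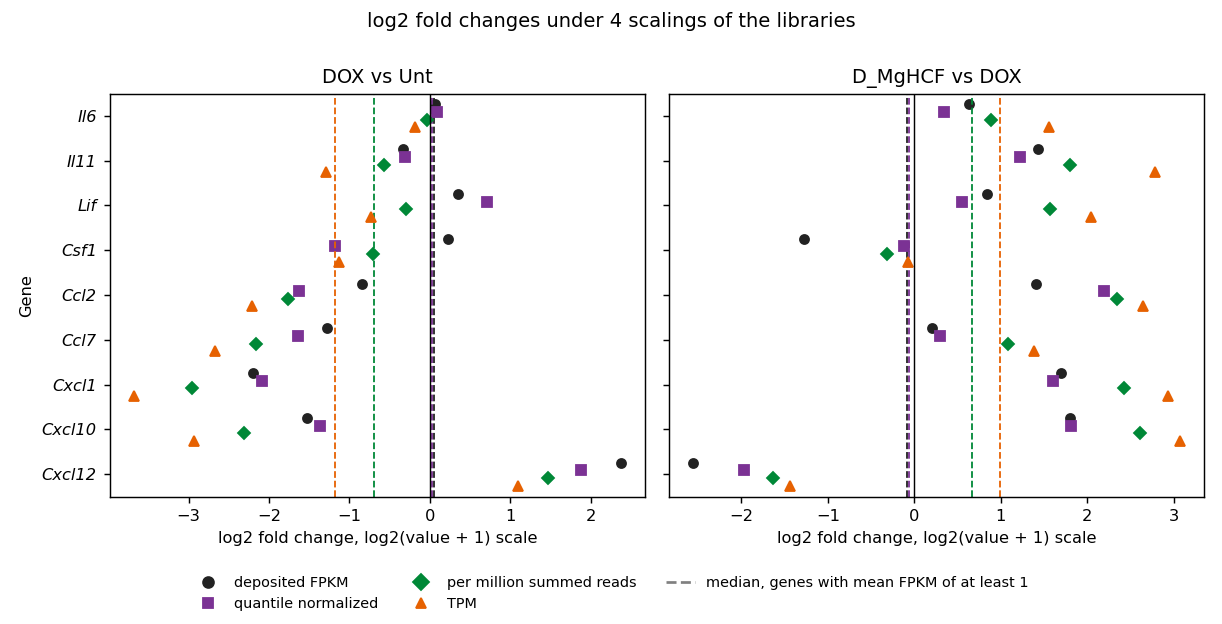
log2 fold changes of the 9 genes for DOX against Unt (left) and D_MgHCF against DOX (right) under 4 scalings, with dashed lines at the median of 11515 genes with a mean FPKM of at least 1. For DOX against Unt the dashed lines reach -1.18 in TPM, and the points of Cxcl12 stay above 0 under each scaling.

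The receptors and signal transducers of these ligands were present for some of the genes only. Il6st, the shared transducer, was at 47.5 to 51.6 FPKM in Unt and at 41.3 to 54.1 in DOX, and fell in D_MgHCF to 19.4 to 29.98 FPKM (log2 fold change against DOX -1.03, limma, adjusted p = 0.000284), although in TPM this difference had the opposite sign. The receptor genes Il6ra, Il11ra1 and Lifr had untreated means of 1.77, 8.53 and 0.686 FPKM. Of the receptors for the chemokines and for CSF1, Ccr1 and Ackr1 had 0 reads in all 12 libraries, Ccr2 had 4, Ccr3 had 2, Cxcr2 had 11, Cxcr4 had 42, Cxcr3 had 49 and Csf1r had 64 reads over the 12 libraries. Ackr3, the atypical receptor that scavenges CXCL12, was the exception, with 4.14 to 4.94 FPKM in Unt, 2.25 to 3.94 with DOX, 2.24 to 2.5 with D_DXZ and 8.54 to 16.6 with D_MgHCF. It was higher in D_MgHCF than in DOX by 1.79 (SE 0.23, limma, adjusted p = 0.000115), and this held in all 21 alternatives. Jak1 rose from 19.7 to 20.6 FPKM in Unt to 53.7 to 65.4 in DOX (1.53, SE 0.13, limma, adjusted p = 1.3e-05), while Jak2 fell from 6.22 to 7.59 to 3.11 to 4.86 FPKM (-0.71, limma, adjusted p = 0.0108). Of the 19 genes of this list 15 were tested. For DOX against Unt 1 rose and 2 fell, where 18.6% of all genes rose and 19.9% fell, and for D_MgHCF against DOX 6 rose and 2 fell, where 31.4% of all genes rose and 20.1% fell.

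The list of feedback inhibitors and mRNA decay factors held 14 genes, all tested. For DOX against Unt 1 rose, 6 fell and 7 did not pass, with a median log2 fold change of -0.39 against 0 over all genes, of which 18.6% rose and 19.9% fell. For D_MgHCF against DOX 10 rose, 2 fell and 2 did not pass, with a median of 1.03 against 0.07 over all genes, of which 31.4% rose and 20.1% fell on the deposited scale. The same split of 10, 2 and 2 was found against D_DXZ, where 29.4% of all genes rose and 19% fell, and for D_DXZ against DOX 0 of 14 passed. Zfp36l2, a decay factor of the tristetraprolin family, fell from 54.3 to 61.5 FPKM in Unt to 7.03 to 13.5 in DOX (-2.44, SE 0.32, limma, adjusted p = 0.000135) and was at 30.6 to 63.5 FPKM in D_MgHCF. Dusp1, a phosphatase that switches off stress kinases, was at 3.33 to 3.49 FPKM in Unt, 0.769 to 3.32 in DOX and 13.1 to 17.3 in D_MgHCF, higher than in DOX by 2.64 (SE 0.28, limma, adjusted p = 3.2e-05). Hnrnpd, which encodes the AU-binding protein AUF1, was at 18.8 to 20.2 FPKM in Unt and fell to 2.01 to 5.91 FPKM in D_MgHCF (-2.26 against DOX, limma, adjusted p = 7e-05). Ptpn11, a tyrosine phosphatase and the most abundant gene of this list, was higher in DOX than in Unt by 0.60 and lower in D_MgHCF than in DOX by -0.95, and for the former the sign turned in TPM, with scaling to summed reads and with quantile normalization.

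Socs3 and Zfp36 are named in addition, after their values were seen. Socs3 encodes the inhibitor that STAT3 induces against signals through Il6st. It was at 8.1, 7.06 and 8.34 FPKM in Unt, 2.55, 1.73 and 1.61 in DOX, 2.98, 2.32 and 1.4 in D_DXZ, and 11.0, 11.0 and 12.9 in D_MgHCF. The order of the groups was thus D_MgHCF, Unt and then DOX and D_DXZ, of which the last groups overlapped. It fell with DOX by 1.59 (log2 fold change -1.59, SE 0.19, limma, adjusted p = 7.1e-05) and was higher in D_MgHCF than in DOX by 2.10 (SE 0.19, limma, adjusted p = 1.3e-05). Zfp36, whose product tristetraprolin removes mRNAs with AU-rich elements, was at 2.11, 2.03 and 1.97 FPKM in Unt, 1.84, 1.82 and 1.07 in DOX, 1.37, 2.07 and 1.9 in D_DXZ, and 11.5, 9.46 and 7.81 in D_MgHCF. All 3 D_MgHCF libraries were above all others. The rise over DOX was 2.04 (SE 0.17, limma, adjusted p = 1e-05). Unlike Il6, Il11 and Cxcl1, neither gene was at the untreated or the DOX level in D_MgHCF replicate 3.

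**Figure D5:**
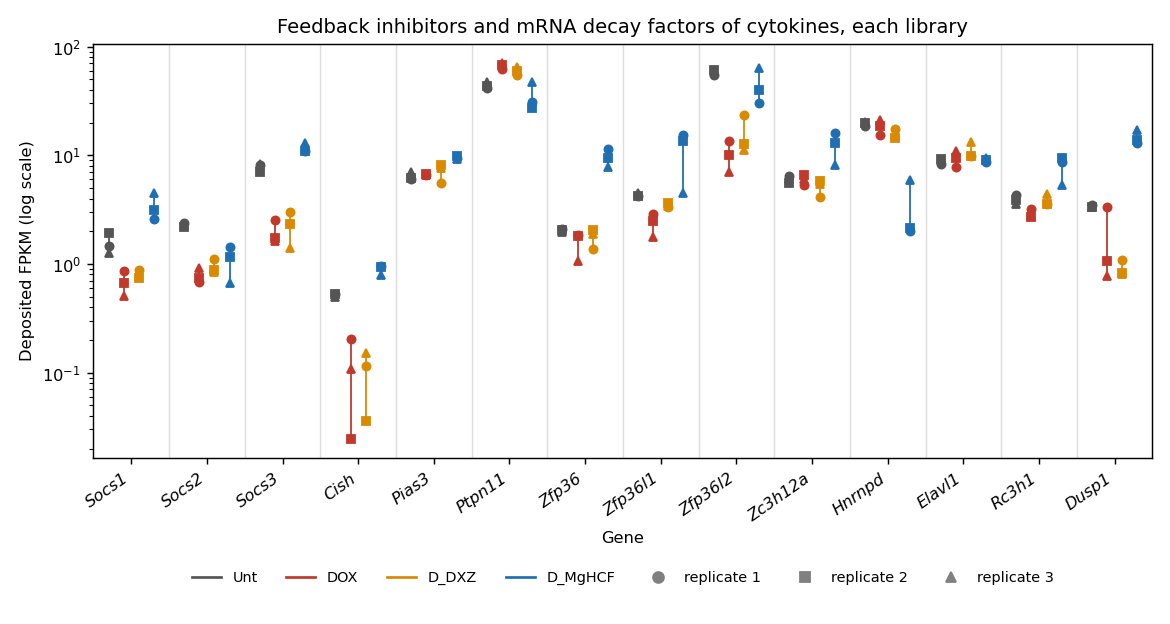
Deposited FPKM (log axis) of the 14 feedback inhibitors and mRNA decay factors in each library, with a line from the lowest to the highest library of each group. Zfp36 and Dusp1 lie above all other libraries in D_MgHCF, and Hnrnpd lies below them.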

How the data were processed

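Poly(A) libraries were sequenced with paired-end reads of 150 bp. The submitters' processing notes name HISAT2 2.0.5 and GRCm38 (mm10), and the counting program and annotation release are not given in the sources used here. The authors deposited FPKM values for 54345 genes in 12 libraries, and no sample column was left unused. Whole reads came out for 100% of the values (tolerance 0.05 reads), since in each library FPKM times gene length moves in equal steps. A count of 0 allows up to 3 reads. The floors cover counting error only, while the intervals of the fold changes come from the spread between libraries in the fit. Depth was 16626514 to 19365119 reads on genes.

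The genes, the lists and the tests were chosen with earlier results of these data known. Groups were fitted together with limma 3.58.1 (R 4.3.3, trend) on log2(FPKM + 1), without covariates, over the 25044 genes detected in 3 or more libraries, with Benjamini-Hochberg adjustment and a threshold of 0.05. The fit was tested on simulated reads with known changes, where the share of unchanged genes among the calls was above that threshold. The pseudocount of 1 understates the change of low genes. From each list, the most abundant gene and the largest called changes are named; receptors are named by their ligands, and Socs3 and Zfp36 after their values were seen. Alternatives were other pseudocounts, filters, thresholds and scalings, voom on the recovered reads, a replicate block, a fit per pair of groups and each library left out. The replicate pairs differed beyond sampling noise. Near-identical copies (at least 95% identity over 150 bases) were searched with BLAST 2.17.0 and not found.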

Additional observations from a re-analysis of the deposited data

How the results depend on the processing

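Of 1230 values under the alternatives, 1075 kept their direction and their side of the threshold or moved little, 93 lost and 25 gained a call, 32 moved and 5 reversed. Some alternatives could change a call but not a direction. These were the other thresholds and the fits without a library of a group outside the comparison, which leave the fold change as it was. The reversals were those of Csf1 for DOX against Unt, at -1.13 in TPM, -1.17 with quantile normalization and -0.71 with scaling to summed reads against 0.23 on the deposited scale, of Csf1 for D_MgHCF against D_DXZ, at 0.0306 in TPM against -0.99, and of Ccl7 for D_MgHCF against D_DXZ, at 0.97 in TPM against -0.03. The median shift of all expressed genes on these scales was given with the depths. The number of the 9 genes called for D_MgHCF against Unt was 6, and was 3 with no filter and 1 in a fit of only those groups, which has fewer samples. For D_MgHCF against DOX it was 8, and was 5 with no filter, 4 with quantile normalization and 4 in a fit of only those groups. For D_DXZ against Unt it was 4, and was 7 in TPM. With each library left out, the count ranged from 3 to 6 for D_MgHCF against Unt, with 3 without any of the Unt libraries and without D_MgHCF replicate 1 or 2. It ranged from 5 to 8 for D_MgHCF against DOX, with 5 without any of the DOX libraries and without D_MgHCF replicate 2. Where not stated, the cause was not tested. Il6 and Il11 had no value with the filter at an FPKM of at least 1.

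Equal replicate numbers did not pair the libraries across all groups. The deviations of 18 same-numbered pairs from their group means correlated between -0.314 and 0.306, and 2 of the 18 were over 0.1. Both of these were between DOX and D_DXZ, at 0.306 for replicate 1 and 0.22 for replicate 3, while DOX replicate 2 and D_DXZ replicate 3 correlated at 0.149. Whether equal numbers share an origin in DOX and D_DXZ was not tested. With the replicate block the counts were 5 for DOX against Unt, 5 for D_DXZ against Unt, 6 for D_MgHCF against Unt, 0 for D_DXZ against DOX, 8 for D_MgHCF against DOX and 6 for D_MgHCF against D_DXZ, and a library correlated best with its own number in 18 of 36 cases. The depth limits Il6 and Il11 most, where counts as low as 3 and 2 reads stand behind a value.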

Other observations

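Other chemokine genes did not all follow Ccl2, Ccl7, Cxcl1 and Cxcl10. Of 25 further chemokines 17 were tested, and for DOX against Unt 5 rose, 1 fell and 11 did not pass, while 18.6% of all genes rose and 19.9% fell. Ccl5, an attractant of T cells, rose from 16.7 to 18.7 FPKM in Unt to 39.9 to 68.0 in DOX (log2 fold change 1.62, limma, adjusted p = 0.000186), was at 39.8 to 53.4 in D_DXZ and at 14.5 to 24.1 in D_MgHCF. Ccl20 fell with DOX by 1.11 on the log2 scale, from 10.5 to 12.2 FPKM in Unt to 3.94 to 5.11 in DOX, and was lowest in D_MgHCF, at 0.487 to 0.719 FPKM (-2.96 against Unt, limma, adjusted p = 1.9e-05). Cx3cl1, the membrane-bound chemokine fractalkine, was higher than in Unt in every group with DOX. It was at 8.92 to 10.4 FPKM in Unt, 27.5 to 34.8 with DOX (1.59, limma, adjusted p = 1.2e-05), 21.8 to 28.8 with D_DXZ (1.36, limma, adjusted p = 5.8e-05) and 24.0 to 24.6 with D_MgHCF (1.26, limma, adjusted p = 5.4e-05). Cxcl5, a neutrophil attractant like Cxcl1, went the other way from Cxcl1, with 4.04 to 4.82 FPKM in Unt, 10.2 to 15.5 in DOX and 0.219 to 1.15 in D_MgHCF. Its log2 fold change was 1.36 for DOX against Unt and -3.12 for D_MgHCF against DOX (limma, adjusted p = 4e-06). For D_MgHCF against DOX 3 of the 17 rose and 5 fell, while 31.4% of all genes rose and 20.1% fell.

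Of 25 further cytokine genes 24 were tested, and for DOX against Unt 2 rose, 1 fell and 21 did not pass, while 38.4% of all genes passed. Some of the 24 were barely detected, with 16, 10 and 5 reads over the 12 libraries for Il1b, Osm and Il10. The count was not set against genes of similar level. Mif, which encodes macrophage migration inhibitory factor, was the most abundant of these cytokine genes. It rose from 331 to 376 FPKM in Unt to between 1243 and 1717 FPKM in DOX (2.13, limma, adjusted p = 5.8e-05) and was at 260 to 458 FPKM in D_MgHCF. For D_MgHCF against DOX 7 rose and 4 fell, against the same 31.4% and 20.1% of all genes. By fitted log2 fold change Tslp rose most, from 0.381 to 0.894 FPKM in DOX to 1.37 to 3.74 in D_MgHCF (1.19, limma, adjusted p = 0.00235). That scale understates the change of lower genes such as Il15, with means of 0.0806 FPKM in DOX and 0.579 in D_MgHCF. Csf3, which encodes the granulocyte growth factor, was at 0.029 to 0.0563 FPKM in Unt and at 3.37, 1.36 and 0.519 FPKM in D_MgHCF replicates 1 to 3 (1.27, limma, adjusted p = 0.00968), with the lowest value in replicate 3 as for Il6 and Il11. For D_DXZ against DOX 0 of the tested genes of either list passed.

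Among 11517 genes with a mean FPKM of at least 1, the genes whose pattern over the 12 libraries was most like that of a gene described above were found by the Pearson correlation of log2(FPKM + 1). The libraries fall into 4 groups and share the scaling, so these values are descriptions. Cxcl12 was most like Tmed10 (r = 0.998), Csf1 most like Lix1l (r = 0.994) and Cxcl10 most like Hmox1 (r = 0.992), the haem oxygenase gene. Ccl2 was most like Pdhx (r = 0.989), Ccl7 most like Tbc1d12 (r = 0.984), Cxcl1 most like Rgs2 (r = 0.978) and Lif most like Wfikkn1 (r = 0.973).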
